A study of Homo sapiens with 9 samples.

Results

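The surfactant protein genes SFTPB, SFTPC, SFTPD, SFTPA1 and SFTPA2 were examined for binding of NKX2-1 and FOXA1 in lung adenocarcinoma cells. Members were all peaks that overlapped 4 windows of the human genome build hg18: chr2:85690000-85800000 around SFTPB, chr8:22020000-22130000 around SFTPC, chr10:81640000-81750000 around SFTPD, and chr10:81250000-81450000 around SFTPA2 and SFTPA1. The windows are 110 kb long, and that of the SFTPA pair is 200 kb long. They held 38 of the 125904 peaks in the 5 lists. NKX2-1 had been mapped by ChIP-seq in NCI-H3122, with 2 lists called replicates 1 and 2 here, and in NCI-H1819 and NCI-H2087 with 1 list each. FOXA1 had been mapped in NCI-H3122 with 1 list. All 3 are established lung adenocarcinoma lines with amplification of NKX2-1, per the series' design text. They were grown in RPMI1640 with fetal bovine serum, and no treatment is named. Of the 9 samples, the other 4 were inputs, which were not analysed here. Nothing in the labels says that the H3122 pair came from separate cultures, and H1819, H2087 and FOXA1 had no replicate. The libraries' read depth is not known, and transcript levels of the surfactant genes are not among the data used here.

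Pulmonary surfactant is the film of lipid and protein that keeps the air spaces of the lung from collapsing, and it is made by alveolar type 2 cells. SP-B and SP-C, encoded by SFTPB and SFTPC, are small hydrophobic proteins that help the lipids to spread. SP-A, encoded by SFTPA1 and SFTPA2, and SP-D, encoded by SFTPD, are collectins, sugar-binding proteins of innate immunity. NKX2-1, or TTF-1, belongs to the homeodomain factors and is long known to activate surfactant promoters in lung epithelium. FOXA1 is a forkhead pioneer factor of the same epithelium, and forkhead sites have been described in the SFTPB promoter.

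The 250 bases before each annotated start are shown because SFTPB and SFTPD had a peak at the 5′ end and the SFTPA pair had none near it. They come from RefSeq on GRCh38.p14, a build other than that of the peaks, so no peak was placed on them base by base. The table matched 4 of the 5 members, all but SFTPC. Motifs were searched on both strands. For NKX2-1 the string CAAGTG was used together with the strings CTCAAG and GCNCTNNAG. For FOXA1 the forkhead string TGTTTAC was searched, and with it the variant TATTTAC. Capitals mark every exact match, and overlapping matches run together. A site that departs from these strings is not marked, so a stretch without a match may still hold one. The SFTPB stretches lie at chr2:85668742-85668991 (start 1) and chr2:85668200-85668449 (start 2), those of SFTPD and SFTPA2 at chr10:79949106-79949355 and chr10:79560408-79560657, all on the minus strand, and that of SFTPA1 at chr10:79610689-79610938 on the plus strand. Each is written 5′ to 3′ along its gene.
SFTPB start 1: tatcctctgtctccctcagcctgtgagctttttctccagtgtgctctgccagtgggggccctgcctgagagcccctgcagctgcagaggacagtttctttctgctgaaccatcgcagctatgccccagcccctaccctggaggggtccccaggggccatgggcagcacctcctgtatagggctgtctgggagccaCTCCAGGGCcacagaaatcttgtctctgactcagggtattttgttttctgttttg
SFTPB start 2: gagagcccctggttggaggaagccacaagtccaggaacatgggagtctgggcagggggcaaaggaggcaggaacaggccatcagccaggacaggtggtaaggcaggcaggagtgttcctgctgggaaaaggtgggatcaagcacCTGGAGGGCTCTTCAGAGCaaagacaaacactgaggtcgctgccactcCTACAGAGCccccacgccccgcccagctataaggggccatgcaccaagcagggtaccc
SFTPD: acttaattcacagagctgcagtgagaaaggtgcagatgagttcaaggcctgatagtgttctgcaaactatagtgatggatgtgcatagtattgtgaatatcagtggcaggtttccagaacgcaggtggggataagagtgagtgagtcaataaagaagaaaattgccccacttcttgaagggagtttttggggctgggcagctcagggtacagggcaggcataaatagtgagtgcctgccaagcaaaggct
SFTPA1: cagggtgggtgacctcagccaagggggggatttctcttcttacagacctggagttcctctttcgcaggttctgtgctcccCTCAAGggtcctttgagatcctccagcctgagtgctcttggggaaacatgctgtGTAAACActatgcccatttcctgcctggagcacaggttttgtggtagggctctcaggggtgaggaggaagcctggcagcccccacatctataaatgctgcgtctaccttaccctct
SFTPA2: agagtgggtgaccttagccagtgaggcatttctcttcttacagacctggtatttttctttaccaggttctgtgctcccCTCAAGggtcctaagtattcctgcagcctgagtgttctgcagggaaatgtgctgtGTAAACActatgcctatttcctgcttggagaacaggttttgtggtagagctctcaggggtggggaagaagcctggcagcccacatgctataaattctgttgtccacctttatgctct

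The GCNCTNNAG motif was matched 4 times before SFTPB start 2, of which 3 matches overlapped within the 106 to 88 bases before the start, and once before start 1. At least 1 match of it occurs in 14.3% of the 35116 promoters in the table. Any of the NKX2-1 strings searched occurs in 29.1% of them, and any of the FOXA1 strings in 5.27%. SFTPA1 and SFTPA2 each held 1 CTCAAG (10.4% of promoters) and, on the reverse strand, 1 TGTTTAC (2.98%), at nearly the same place in both. These 2 stretches were identical at 213 of 246 aligned bases, or 86.6%. The SFTPD stretch held none of these letter strings in this window. CAAGTG (9.50% of promoters) and TATTTAC (2.39%) were found in none of the 5 stretches shown. A second annotated SFTPA2 start is not shown and held no match.

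The windows differed widely in how many peaks they held. In the SFTPB window NKX2-1 had 3 peaks in the first H3122 list, 6 in the second, 2 from H1819 and 4 from H2087, while FOXA1 had 4. In the SFTPD window NKX2-1 had 2 peaks in replicate 1, 4 in replicate 2 and 1 each from H1819 and H2087, while FOXA1 had 2. Around SFTPC there were 1 and 5 NKX2-1 peaks in the H3122 replicates, none in H1819 or H2087, and 3 FOXA1 peaks. The window of SFTPA2 and SFTPA1 held no peak in any of the 5 lists.

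For comparison hg18 was divided into consecutive windows of the same length. Of those of 110 kb, 20.2% held at least 1 peak of NKX2-1 replicate 1, 60.1% of replicate 2, 28.0% of H1819, 25.2% of H2087 and 58.6% of FOXA1. A single peak in a window is therefore common in the 2 long H3122 lists. The SFTPB counts were higher than the mean of 110 kb windows in each list: 11.2 times in replicate 1, 3.47 times in replicate 2, 4.13 times in H1819, 7.71 times in H2087 and 2.62 times for FOXA1. As many peaks or more were held by 1.23% of windows in replicate 1, 6.73% in replicate 2, 11.3% in H1819, 3.47% in H2087 and 13.8% for FOXA1. For SFTPD the corresponding shares were 4.88%, 16.9%, 28.0%, 25.2% and 37.0%. For SFTPC they were 20.2% in replicate 1, 10.7% in replicate 2 and 22.6% for FOXA1, while H1819 and H2087 had no peak there. These are descriptions of the lists, with no test, since each line has at most 2 libraries per factor. In the SFTPB window, 11 of the NKX2-1 peaks, among them every one of replicate 1, lay in 1 stretch of 9.07 kb described below. That stretch is not assigned to SFTPB, so the counts describe the window and not the gene.

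**Figure D1:**
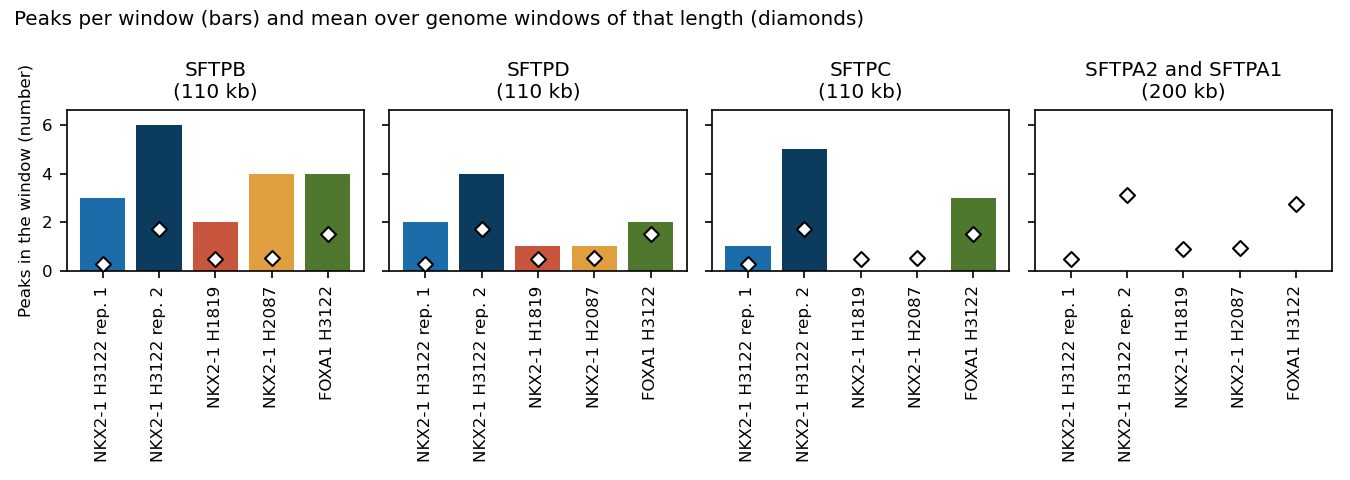
Number of peaks in each surfactant gene window (vertical axis) for each list (horizontal axis, bars), with the mean over all genome windows of that length as diamonds. The SFTPB bars stand above the mean in every list, with 6 peaks in NKX2-1 H3122 replicate 2, and the SFTPA2 and SFTPA1 panel has no bar.

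The SFTPB window held the most peaks, and most of them lay away from the gene. The gene spans about 85.738 to 85.749 Mb in hg18 and, by GRCh38, is read on the minus strand, so its 5′ end is the higher coordinate. Merging the 4 NKX2-1 lists gave 7 regions in its window. Of these, 4 lay together on the 5′ side, from 85786033 to 85795101, a stretch of 9.07 kb that began 37.0 kb beyond the 5′ end of the gene. In the gene order of GRCh38, the next protein-coding genes on that side are GNLY and ATOH8. Their hg18 positions were not used here, so the stretch may lie nearer to another gene and is not assigned to SFTPB. This stretch held 11 of the 15 NKX2-1 peaks in the window.

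The strongest region of the stretch was chr2:85791373-85792577, 42.4 kb from the 5′ end of SFTPB. It was the only region of the 4 windows with NKX2-1 peaks in all 3 lines. The authors' peak score, which is a peak's own value and is comparable only within its list, was 719 in replicate 1, the 11th of 7469 peaks. In replicate 2 it was 3100, a value shared by 82 peaks of that list, with 99.8% of the list lower. In H2087 it was 575, with 87.8% of the list lower. H1819 differed, with a score of 72.2 and only 16.8% of its list lower. FOXA1 had a peak of score 864 there, above 93.4% of its list. The 4 NKX2-1 peaks shared a core of 294 bp, and their midpoints lay within 113.5 bp of each other. By mean rank of score over the 4 lists, the region was the 350th of the 962 regions of the genome found in all 4. The ranks were not scaled to list length, and the H1819 peak ranked 11219th of 13486 in its list.

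On either side of it were regions found in H3122 and H2087 but not in H1819. The nearer to the gene, chr2:85786033-85786858, scored 112 in replicate 1, 1052 in replicate 2 and 386 in H2087, and FOXA1 scored 163 there. The farther, chr2:85793745-85795101, scored 111 in replicate 1, 879 in replicate 2 and 757 in H2087, the highest H2087 score in the 4 windows. It had no FOXA1 peak, although 83.7% of replicate 2 peaks in the top 10% of scores had one. The last region of the stretch, chr2:85787877-85788344, had a peak in replicate 2 alone, near the lower limit of that list with a score of 60.4, and a FOXA1 peak of score 185. Each of the 4 replicate 2 peaks thus had 3 others within 10 kb, as many as 10.0% of the peaks of that list do. A FOXA1 peak at chr2:85782860-85783118 (score 97.9) lay on the gene side of the stretch with no NKX2-1 peak on it.

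At the gene itself binding was seen in single lists. A replicate 2 peak at chr2:85748521-85749642, with a score of 298 and 77.9% of its list lower, covered the stated 5′ end of SFTPB, which is given to 1 kb. No other list had a peak there. The 2 annotated SFTPB starts lie 542 bases apart, less than the 1122 bp of the peak. Among the replicate 2 peaks in the same one of 10 equal score classes, 14.7% were found in replicate 1, 20.6% in H1819, 26.9% in H2087 and 59.3% under FOXA1. Most replicate 2 peaks of similar score were likewise missing from the other NKX2-1 lists, while most had a FOXA1 peak. Within the gene, H2087 alone had a peak at chr2:85743432-85743850 (score 87.1, 25.8% of its list lower), 5.15 kb from the 5′ end. On the 3′ side, 40.9 kb from the gene, chr2:85696530-85697084 had peaks in replicate 2 (score 171) and H1819 (score 64.1). In the gene order of GRCh38, C2orf68 and USP39 are the next protein-coding genes on that side, and this region is not assigned to SFTPB. The first peaks beyond the window on that side were 1 of H1819 (score 239) and 1 of FOXA1 (score 184.5), 3.0 and 3.18 kb outside. Beyond the other edge the first was a FOXA1 peak 22.4 kb outside.

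**Figure D2:**
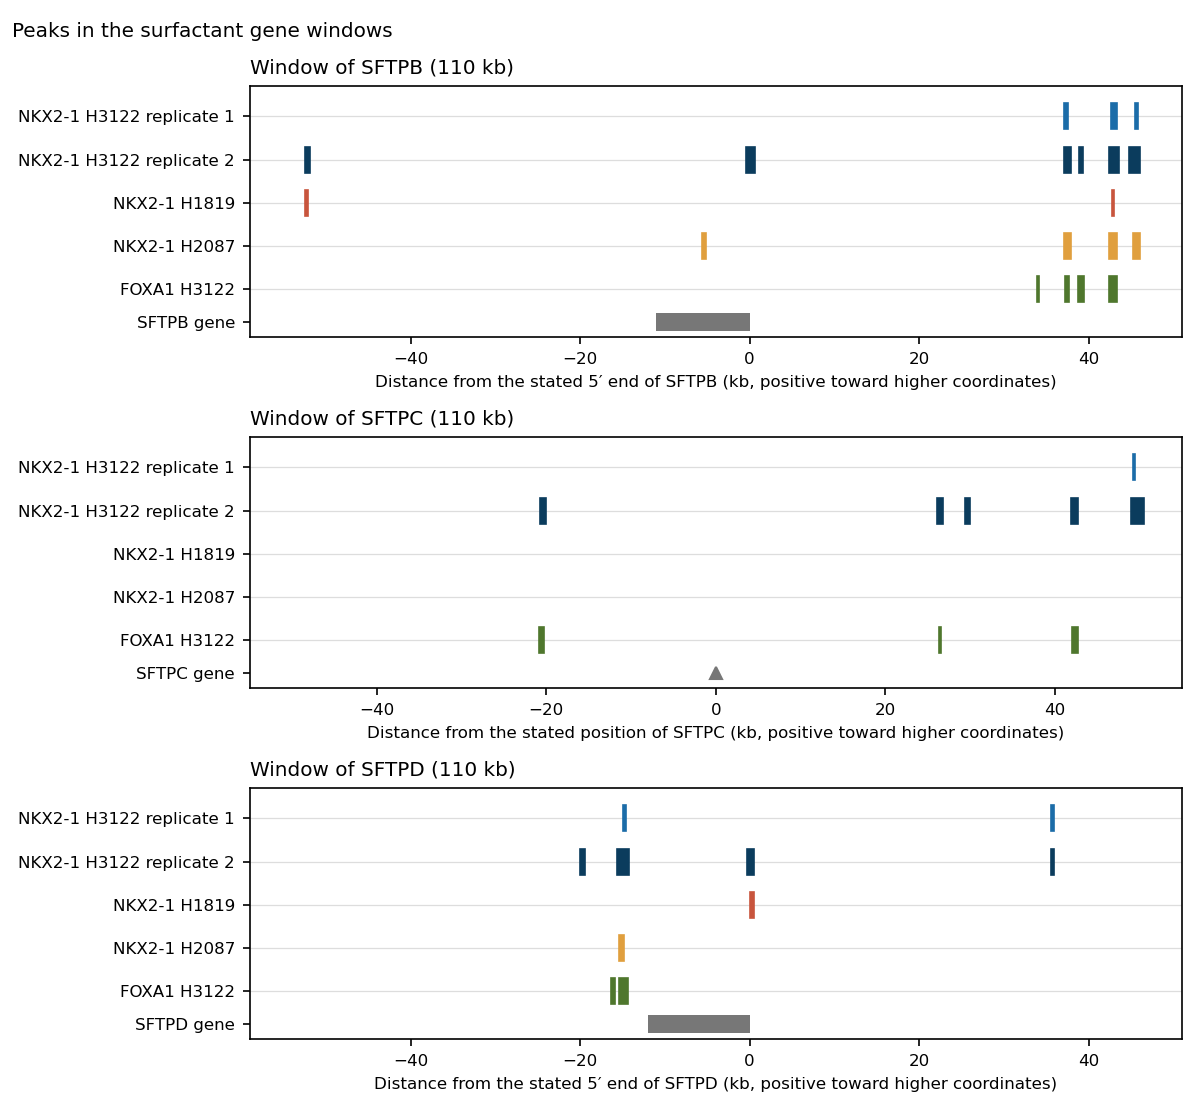
Peaks of each list (rows, drawn to scale) in the windows of SFTPB, SFTPC and SFTPD, against distance in kb from the stated 5′ end or position of the gene; the grey bar or triangle marks the gene. In the SFTPB window 4 NKX2-1 regions sit 37.0 kb and more from the 5′ end, in the SFTPD window 1 region sits at the 5′ end, 2 beyond the 3′ end and 1 beyond the 5′ end at 35.5 kb, and in the SFTPC window no peak comes nearer than 20 kb.

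SFTPD had NKX2-1 binding at its 5′ end in 2 lines and beyond its 3′ end in 2. The gene lies at about 81.687 to 81.699 Mb, also on the minus strand. At the 5′ end, chr10:81698730-81699559 had peaks in replicate 2 (score 463, 87.6% of the list lower) and in H1819 (score 308, 82.5% lower), and none in replicate 1, H2087 or FOXA1. The 2 peaks shared 523 bp. The H1819 peak began within the rounding of the stated gene end, which is given to 1 kb. It was the highest of the 3 H1819 peaks in the 4 windows. Of the replicate 2 peaks in its score class, 24.4% were found in H1819, 24.7% in replicate 1, 30.9% in H2087 and 69.4% under FOXA1.

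The other main region, chr10:81683399-81684712, lay 2.29 kb beyond the 3′ end. It had peaks in both H3122 replicates and H2087, and not in H1819. Its scores were 54.8 in replicate 1 with 8.76% of the list lower, 1281 in replicate 2 with 98.0% lower, and 156 in H2087 with 51.4% lower. It thus stood near the bottom of the replicate 1 list and near the top of the replicate 2 list. FOXA1 had a peak there (score 163) and another close by at chr10:81682631-81683165 (score 164) without NKX2-1. The window held a further pair of weaker regions. The one at chr10:81678973-81679608 was found in replicate 2 alone with a score of 72.1, and that at chr10:81734514-81734951 in both replicates with scores of 82.7 and 161. The first peak above the window was one of replicate 2 at chr10:81828171-81829274 (score 102.7), 78.2 kb outside, and the first below it was a FOXA1 peak at chr10:80881972-80882421 (score 146), 758 kb outside. In the gene order of GRCh38, TMEM254 and PLAC9 are the next protein-coding genes on the higher side. The region at chr10:81734514-81734951 is therefore not assigned to SFTPD.

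SFTPC had NKX2-1 peaks around it in H3122 only, and none near the gene. In hg18 the gene lies at about 22.075 Mb. The nearest replicate 2 peak, chr8:22054266-22054959, lay 20 kb away, and 36.5% of points spaced every 10 kb along the genome were as near to a peak of that list. Nearest peaks of the other NKX2-1 lists were 49.2 kb away in replicate 1, 83.5 kb in H1819 and 66.1 kb in H2087, the last 2 outside the window. For FOXA1 the distance was 20.2 kb. The 5 merged regions of the window all had replicate 2 peaks, with scores of 73.6 to 143, at most 51.9% of that list scoring lower. One of them, chr8:22124004-22125559, also had a replicate 1 peak of score 53.5. FOXA1 peaks lay on 3 of the 5, with scores of 109, 71.1 and 425. The last, at chr8:22117004-22117763, scored above 83.0% of its list, while the NKX2-1 peak on it (score 86.7) scored above 25.1% of its own. The first peaks below the window, 13.3 kb outside, were of H2087 (score 231) and replicate 2 (score 474), with a FOXA1 peak 13.4 kb outside (score 223). The first above it was an H2087 peak 11.1 kb outside (score 135). In the gene order of GRCh38, the next protein-coding genes are REEP4 and LGI3 on the lower side and BMP1 and PHYHIP on the higher. Their hg18 positions were not used here, so the regions of the window may lie nearer to another gene and are not assigned to SFTPC.

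The SFTPA genes lay in a long stretch without peaks. Positions are given to 10 kb, about 81.31 Mb for SFTPA2 and 81.36 Mb for SFTPA1. Of genome windows of 200 kb, 32.0% held a peak of replicate 1, 72.8% of replicate 2, 41.2% of H1819, 35.6% of H2087 and 72.2% of FOXA1, and 18.7% held none in any list, as this one did. The peak-free stretch around the pair measured 804 kb in replicate 1, 799 kb in replicate 2, 819 kb in H1819, 1070 kb in H2087 and 800 kb for FOXA1. With the 5 lists pooled it measured 797 kb, from 80882422 to 81678972 on chromosome 10. Of the gaps between peaks of the pooled lists, 0.167% were as long, and such gaps made up 9.56% of the genome. It ended on one side at the SFTPD regions described above. SFTPA1 was 319 to 339 kb, and SFTPA2 369 to 389 kb, from the nearest peak of any list. Depending on the list, 59.3% to 88.3% of genome points were as near to a peak as SFTPA1. For SFTPA2 the shares were 62.1% to 89.3%. The authors' treatment of reads that align to more than 1 place is not given in the sources used here, and its part in the absence of peaks at this pair of like sequences was not tested.

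**Figure D3:**
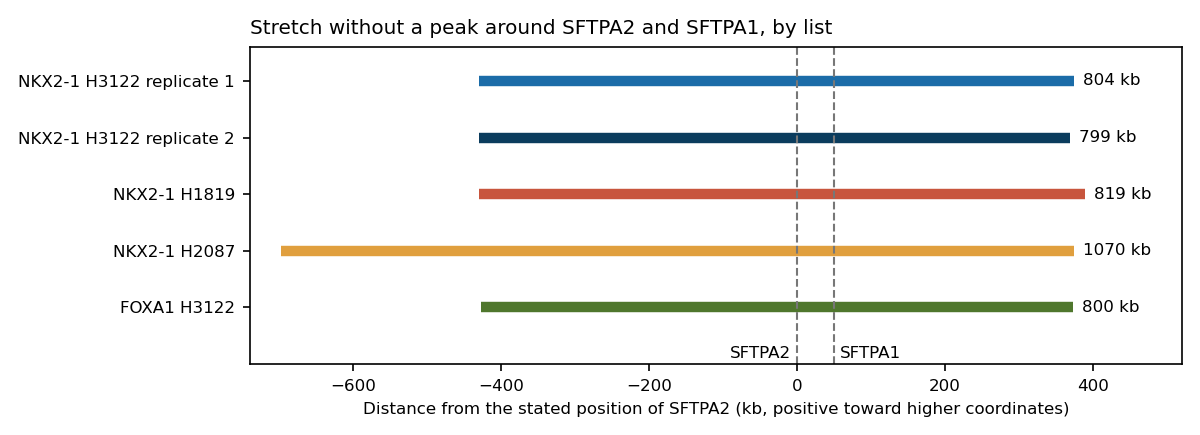
Stretch without a peak in each list (bars, with their length) around SFTPA2 and SFTPA1 (dashed lines), against distance in kb from the stated position of SFTPA2. All 5 bars span both genes, and the shortest is 799 kb long.

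The members differed in how near the closest peak lay. A replicate 2 peak covered the stated 5′ end of both SFTPB and SFTPD, and 1.17% of genome points lay on a peak of that list. The stated ends are given to 1 kb, so cover of the true ends is not settled. For replicate 2 there were 302262 points, on the chromosomes with a peak of that list, and for the other lists 308039. The H1819 peak at SFTPD lay 0.003 kb from the stated position, within its rounding, and 0.224% of points were as near to an H1819 peak. That share holds for this exact distance, which is finer than the position is known, and it grows with distance. SFTPB was 42.7 kb from an H1819 peak (23.3% of points as near) and SFTPD 14.8 kb from an H2087 peak (9.80%). In replicate 1 the distances were 37.1 kb for SFTPB and 14.6 kb for SFTPD. For FOXA1 they were 33.9 kb for SFTPB (46.1% of points as near) and 14.4 kb for SFTPD (26.7%), so no FOXA1 peak lay at either 5′ end. In H2087 the nearest peak to SFTPB was the one within the gene, 5.15 kb away (4.11% of points as near).

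**Figure D4:**
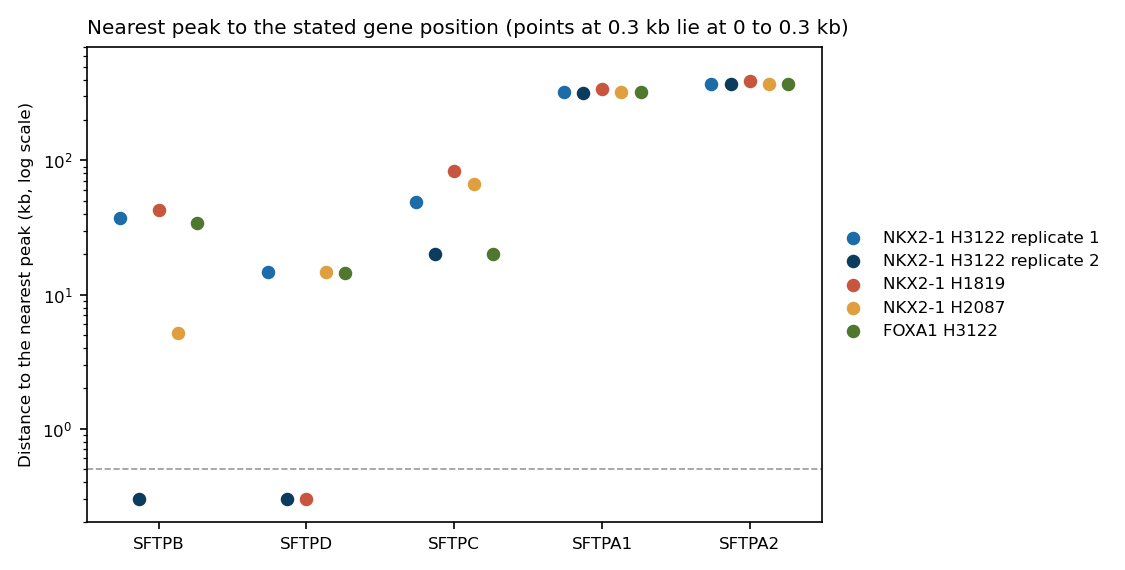
Distance from the stated position of each member gene to the nearest peak of each list, on a log axis; the dashed line at 0.5 kb marks the rounding of positions given to 1 kb. Replicate 2 reaches SFTPB and SFTPD, H1819 reaches SFTPD, and all 5 lists lie 319 kb or more from SFTPA1 and SFTPA2.

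Across the 4 windows there were 16 merged NKX2-1 regions: 7 at SFTPB, 5 at SFTPC, 4 at SFTPD and 0 at the SFTPA pair. H3122 had a peak in 15 of them, of which 6 were in both replicates and 9 in replicate 2 alone. H2087 had 5 and H1819 had 3. Peaks in 2 or more lines were found in 6 regions, or 37.5% (95% Wilson interval 18.5 to 61.4), against 23.3% of all 59685 regions of the genome. Peaks in all 3 lines were found in 1 region, or 6.25% (1.11 to 28.3), against 4.61%, and in 0 when only scores of at least 100 were kept. A FOXA1 peak lay on 7 regions, or 43.8% (23.1 to 66.8), against 39.7%. Without replicate 2, 9 regions were left and a FOXA1 peak lay on 3 of them, or 33.3%. The genome share without replicate 2 is not given here, and the 39.7% includes its regions. Among regions with an H3122 NKX2-1 peak it was 7 of 15, or 46.7% (24.8 to 69.9), against 46.8%. The intervals cover counting error only and treat the regions as separate draws, although 4 of the 16 lie in 1 stretch of 9.07 kb. They are wide, and no difference from the genome is drawn from them.

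Peaks of the windows were shared between lists as follows, each beside the share over the whole list. All 6 replicate 1 member peaks were found in replicate 2, against 81.7% of the list, and 6 of the 15 replicate 2 peaks in replicate 1, against 12.5%. All 3 H1819 peaks were found in replicate 2, against 53.4%, and 4 of the 5 H2087 peaks, against 67.7%. The 1 exception was the H2087 peak within SFTPB. Of the 9 FOXA1 peaks 7 lay on a replicate 2 peak, against 54.5%, and 7 of the 15 replicate 2 peaks lay on a FOXA1 peak, against 47.8%. Overlapping NKX2-1 and FOXA1 peaks of H3122 had midpoints 6.0 to 159 bp apart.

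Member peaks ranged from weak to strong within their lists. In replicate 2 the median was 161 with a range of 60.4 to 3100, against a list median of 137, and 4 of the 15 peaks stood in the top 10%. Of those 4, 3 were in the distal stretch of the SFTPB window and 1 beyond the 3′ end of SFTPD. In H2087 the median was 386 (87.1 to 757) against 149.7, with 4 of the 5 peaks above it. H1819 peaks had a median of 72.2 (64.1 to 308) against 124, and only the SFTPD peak was above. Replicate 1 peaks had a median of 96.9 (53.5 to 719) against 73.3, and FOXA1 peaks one of 163 (71.1 to 864) against 139.

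**Figure D5:**
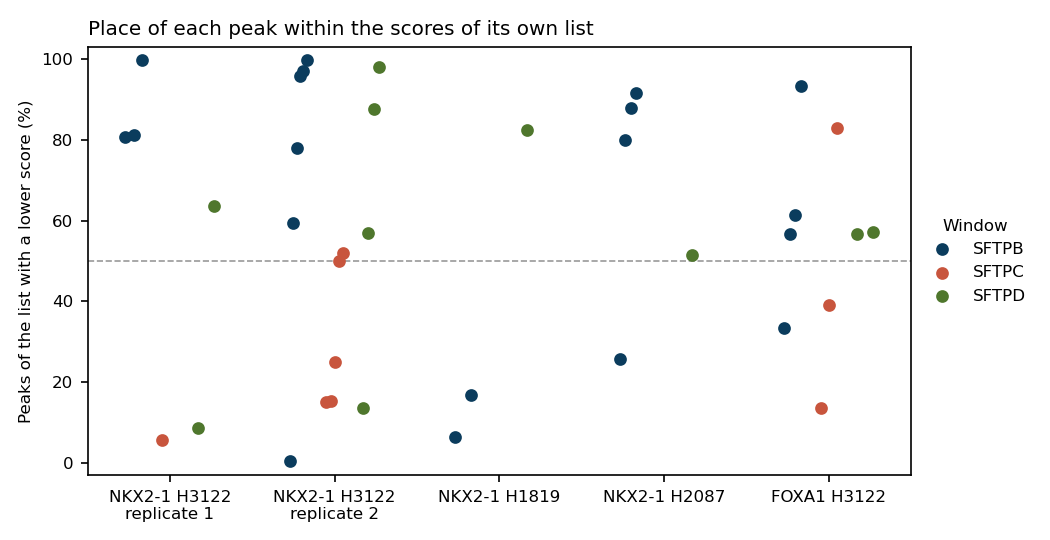
Percent of the peaks of a list with a lower score (vertical axis) for every member peak, by list (horizontal axis) and by window (colour); the dashed line marks the middle of the list. SFTPB peaks reach 99.9% in replicate 1 and 99.8% in replicate 2 but stay at 16.8% and below in H1819, where the highest point is the SFTPD peak at 82.5%.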

How the data were processed

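Each deposited list gave the position of a peak and a score. The submitters' processing notes name Bowtie, MACS 1.4.0 and hg18, and each list belongs to 1 library per the labels. The deposited score is not explained in the sources used here, and neither is which input served as control. Scores were ranked within a list only. Read depth is not known. Positions are 1-based.

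Windows and gene positions followed the selection rule, which was set with earlier results of these data known, as were the gene lists and motifs. Peaks counted as members, and as shared, at an overlap of at least 1 bp. NKX2-1 peaks of the 4 lists were merged where they overlapped. Every region is accounted for. Those in 2 or more lines, the highest peak of each list, peaks touching a gene and the first peaks outside a window are named. Genome windows were laid end to end over the hg18 chromosomes, whose lengths came from GenomeInfoDb 1.38.1 and bands from circlize 0.4.16 in R 4.3.3. Genes near the members took their order from RefSeq on GRCh38.p14. Python 3.11.15 with numpy 2.4.6, pandas 2.3.3, scipy 1.17.1, Biopython 1.88 and matplotlib 3.10.9 was used, and the counting code was tested on simulated lists. No test of a difference was made, for lack of replicates. Planned counts at other genes of surfactant handling needed hg18 gene coordinates, which were not used here. Alternatives changed the score minimum, list length, windows, overlap rule, H3122 list and genome windows.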

Additional observations from a re-analysis of the deposited data

How the results depend on the processing

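Of 45 alternatives over 13 results, all planned, 23 left the value within the limit set and 22 moved it. For the 33 alternatives on counts the limit was 1.5 times, which the smallest counts pass by 1 or 2 peaks. For the 12 on percent shares of genome windows it was the 95% Wilson interval of the reported share. A midpoint rule for windows moved none. Scores of at least 100 left 3 of 6 replicate 1 peaks and 1 of 3 H1819 peaks, 0 regions in all 3 lines, since H1819 scored 72.2 at the one there was, and 3 regions with FOXA1 in place of 7. Fewer regions remained in all at that limit, and the genome share at it is not given here. With the best 7469 peaks of each list, 5 of 15 replicate 2 peaks remained, 1 of 3 H1819 peaks and 2 of 9 FOXA1 peaks. The whole lists held 48071, 13486 and 42437 peaks in that order. This cut therefore drops most replicate 2 and FOXA1 peaks wherever they lie, and the loss is not particular to the members. Windows cut to the gene plus 20 kb held 1 replicate 1 peak, 4 of replicate 2, 1 of H1819, 2 of H2087 and 2 of FOXA1. The distal stretch of the SFTPB window then lies outside, as do all SFTPC peaks and the outer peaks of the SFTPB and SFTPD windows. Windows widened by 100 kb held 25 of replicate 2, 5 of H1819, 12 of H2087 and 21 of FOXA1. Leaving out each H3122 replicate in turn gave 3 to 7 regions with FOXA1, the lower being 3 of the 9 left without replicate 2, and 1 region in all 3 lines both times. Without heterochromatin bands the genome windows with as many peaks as that of SFTPB were 7.32% in replicate 2, 12.2% in H1819, 3.77% in H2087 and 15.0% for FOXA1, and 12.3% of 200 kb windows held no peak in any list, against 18.7% with them. No paired analysis was possible because no list serves as a control and no test was made. Unknown depth limits what the absence of a peak means in the shorter lists.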
